A study of Mus musculus with 4 samples.

Results

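Prr30 (ENSMUSG00000042888.10), a gene named for the proline-rich protein it encodes, carried a dense array of IGF2BP3-binding peaks in its coding region in mouse testes. It was chosen by the number and density of its significant peaks in both replicates, so its peak counts, fold changes and coverage are given as a description with no test. Its members are the read clusters whose centre lies inside the gene span on the strand of the gene, 35 of 337234 clusters in replicate 1 and 31 of 216354 in replicate 2. The libraries came from testes of wild-type C57BL/6 male mice aged 8 weeks, crosslinked by UV light as a suspension of whole testis that held both germ and somatic cells. Each of the 2 replicates paired 1 library immunoprecipitated with an antibody against IGF2BP3 (IP) with 1 size-matched input library made without antibody (SMInput). All 4 libraries shared genotype, strain, age and crosslinking. The labels do not say which animals the replicates came from, although the study's text calls the replicates biological, and only the spread between these 2 pairs of libraries is known. No library from mice that lack IGF2BP3 was analysed here, and the only background of an IP was its own SMInput.

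IGF2BP3 is a cytoplasmic RNA-binding protein with RRM and KH domains and is counted among the readers of N6-methyladenosine (m6A), a methyl mark that occurs mostly on A in the sequence GGAC or close variants of it. Proteins of this family bind mRNAs and influence their stability, transport and translation, which in the male germline matters because many mRNAs are stored for later translation. In eCLIP-seq, UV light ties protein to RNA, the protein is pulled down, and the reads it holds are set against the SMInput of the same lysate. A cluster is a short run of bases where reads pile up, and its log2(fold change) is the IP read number over the SMInput read number, each divided by its library total.

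Prr30 lies on the minus strand of mm10 at chr14:101197690-101200330, a span of 2641 bases with 2 annotated transcripts. Both have 3 exons, and in the one with the shorter exon 1 that exon has 15 bases, exon 2 has 51 bases and exon 3 has 1796 bases. Exon 3 holds the whole coding region, chr14:101197922-101199124, together with the 361 bases of 5′UTR next to it and the 3′UTR of 232 bases with the stop codon. The coding region has 1203 bases and 401 codons, against a median of 1170 bases over 21938 protein-coding genes. The coding sequence was shorter in 51.2% of these genes, so by length this coding region is near the middle. Of its codons, 54 encode proline, or 13.5%, and 97.9% of the genes had a lower share of proline, with a median of 5.27%. Serine was more frequent still, with 62 codons or 15.5%. No annotated gene overlaps the span on either strand, and the nearest protein-coding genes, Tbc1d4 and Klf12, lie 242029 and 913010 bases away.

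Clusters of both replicates covered the same 4 stretches of the coding region, and their sequences are shown because peaks packed edge to edge within them account for nearly all members. Positions count from 1 at the A of the start codon, sequences are those of the sense strand in GRCm38 (mm10), 5′ to 3′, and capitals mark 8 or more C or T in a row. The first stretch runs over coding positions 87 to 545 (459 bases, chr14:101198580-101199038) and is printed in 2 pieces that join at positions 316 and 317. The others run from 554 to 575 (22 bases, chr14:101198550-101198571), from 815 to 868 (54 bases, chr14:101198257-101198310) and from 877 to 964 (88 bases, chr14:101198161-101198248).
Stretch 1, positions 87 to 316: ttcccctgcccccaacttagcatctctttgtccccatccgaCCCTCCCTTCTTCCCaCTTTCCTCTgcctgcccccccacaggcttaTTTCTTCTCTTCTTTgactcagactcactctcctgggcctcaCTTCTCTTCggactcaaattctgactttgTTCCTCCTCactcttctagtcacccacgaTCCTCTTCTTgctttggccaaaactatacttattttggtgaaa
Stretch 1, positions 317 to 545: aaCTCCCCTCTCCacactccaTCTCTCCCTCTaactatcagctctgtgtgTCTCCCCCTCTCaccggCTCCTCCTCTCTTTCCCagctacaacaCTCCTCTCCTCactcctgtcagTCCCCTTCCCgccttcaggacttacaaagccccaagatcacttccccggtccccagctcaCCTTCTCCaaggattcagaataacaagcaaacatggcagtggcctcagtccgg
Stretch 2, positions 554 to 575: agtcttctcggggggcaggggt
Stretch 3, positions 815 to 868: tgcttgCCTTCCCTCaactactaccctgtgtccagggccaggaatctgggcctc
Stretch 4, positions 877 to 964: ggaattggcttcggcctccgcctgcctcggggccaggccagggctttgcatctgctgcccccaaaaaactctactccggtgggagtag

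For contrast, the start of the coding region and the longest internal gap held no cluster in either replicate. The start covers positions 1 to 76 (chr14:101199049-101199124), and the gap covers positions 579 to 763 (185 bases, chr14:101198362-101198546). Their sequences stand beside those of the bound stretches, with the same use of capitals, and the gap holds no such run.
Unbound start, positions 1 to 76: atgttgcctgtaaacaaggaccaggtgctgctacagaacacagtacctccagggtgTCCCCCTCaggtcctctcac
Unbound gap, positions 579 to 763: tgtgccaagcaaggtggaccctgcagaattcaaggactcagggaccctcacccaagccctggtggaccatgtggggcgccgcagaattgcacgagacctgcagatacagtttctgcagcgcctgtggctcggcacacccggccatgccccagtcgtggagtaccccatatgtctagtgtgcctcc

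All clusters of Prr30 were significant peaks at the thresholds of the study, which ask for 2 or more both in log2(fold change) and in −log10(P value), and all also passed thresholds of 3. The counts were 35 of 35 in replicate 1, where 4.92% of all clusters were significant, and 31 of 31 in replicate 2, where 13.2% were. Because the gene was selected on these counts, nothing is read from the comparison. In replicate 1, 33 peaks had their centre in the coding region and 2 in the 3′UTR, while in replicate 2 all 31 lay in the coding region. No peak lay in the introns or in the annotated 5′UTR of 688 bases in either replicate, and no cluster lay on the other strand. Beyond the span, the nearest cluster on the same strand was 243029 bases away in replicate 1 and 254024 bases away in replicate 2.

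Peaks of Prr30 covered 668 coding bases in replicate 1 (55.5%), 636 in replicate 2 (52.9%) and 623 in both (51.8%). Most of the peaks were pieces of a few covered stretches. When touching peaks were joined, the 35 peaks of replicate 1 made 7 sites and the 31 of replicate 2 made 4. The longest site held 24 peaks over 461 bases in replicate 1 and 23 peaks over 469 bases in replicate 2. The end of the coding region, positions 966 to 1203, was without clusters in either replicate and made up 19.8% of its bases, and the internal gap of 185 bases made up another 15.4%. Peaks lay mainly on the 5′ side of the midpoint of the coding region, with 25 peaks there against 8 on the 3′ side in replicate 1, and 24 against 7 in replicate 2. The plot of fold changes along the last exon shows this order.

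**Figure D1:**
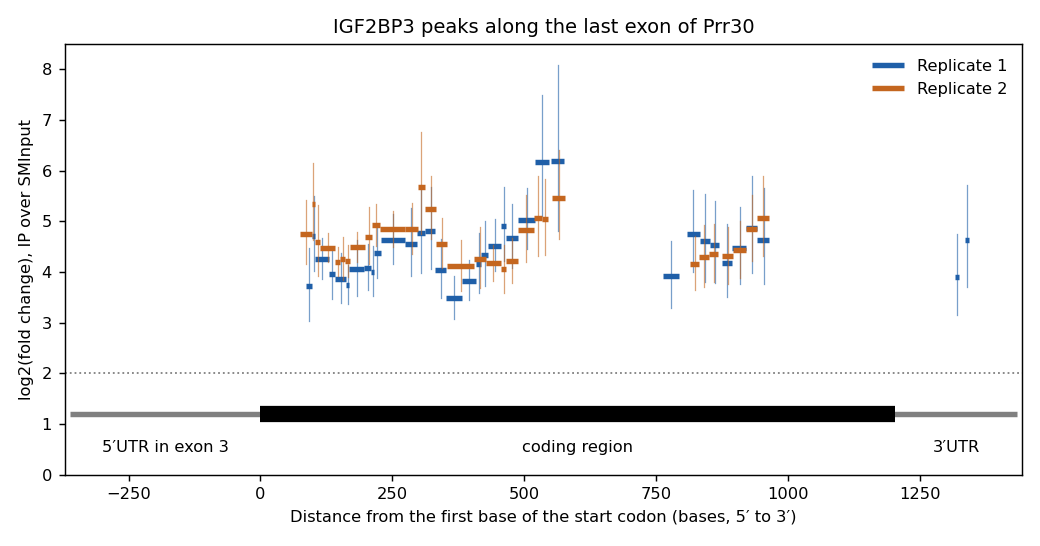
Log2(fold change) of IP over SMInput (y axis) of each Prr30 peak against the distance from the first base of the start codon in bases (x axis), with thick bars for the width of a peak, thin vertical lines for the 95% counting interval, the dotted line at the threshold of 2 and the gene model of exon 3 at the bottom. Both replicates cover the same 4 stretches of the coding region, at values from 3.49 to 6.19, and leave its start and end bare.

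In replicate 1, the lowest log2(fold change) of a Prr30 peak was 3.49, the median 4.48 and the highest 6.19. In replicate 2, the lowest was 4.06, the median 4.56 and the highest 5.68. The medians of both replicates thus lay close together, and the range of replicate 2 lay inside that of replicate 1. For comparison, the median significant peak of all genes had a log2(fold change) of 2.85 in replicate 1 and 3.07 in replicate 2. Of all significant peaks, 97.2% and 97.5% were below the Prr30 median of their replicate. Widths of Prr30 peaks ran from 5 to 47 bases in replicate 1 and from 6 to 53 in replicate 2, with a median of 20 in both, against 59 and 57 for all significant peaks.

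The highest −log10(P value) that the tables list is 400, and it was given to 20 of the 35 Prr30 peaks in replicate 1 and to 31 of 31 in replicate 2. These were 16.8% of the 119 significant peaks listed at 400 in replicate 1 and 11% of the 283 in replicate 2, where 22 and 58 genes had such a peak. The other 15 peaks of replicate 1 had values from 41.3 to 81. Over all genes, the highest value below 400 that a chi-square test gave back was 88.2 in replicate 1 and 88.0 in replicate 2. A listed 400 was therefore taken to stand for any larger value, not for a P value of that size. Read numbers were recovered from the listed fold changes and P values. For peaks listed at 400 only the smallest possible numbers are known, so their counting intervals are the widest possible. On this basis the peaks held from 141 to 640 IP reads and 4 to 66 SMInput reads in replicate 1, and from 141 to 738 IP reads and 10 to 123 SMInput reads in replicate 2. The median significant peak of all genes held 13 IP and 3 SMInput reads in replicate 1, whereas in replicate 2 it held 8 and 4. The read number of a peak also depends on how much mRNA of the gene the testis holds, and in whole testis more expressing cells and more RNA per cell cannot be told apart. A sequenced fragment longer than a peak can count in several neighbouring peaks, so the read numbers of Prr30 peaks cannot be added up.

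**Figure D2:**
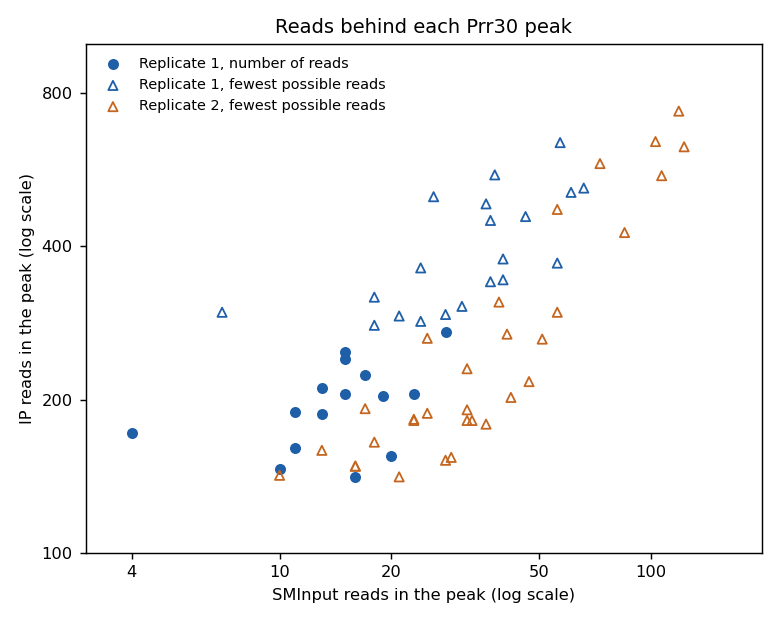
IP reads (y axis) against SMInput reads (x axis) of each Prr30 peak, both on log scales, with filled circles where the read number is known and open triangles where the smallest possible number is drawn. Every peak of both replicates has at least 141 IP reads, and the lowest SMInput number, 4 reads, belongs to a peak of replicate 1.

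The strongest enrichment of replicate 1 lay at the 3′ end of the dense region. The peak at coding positions 552 to 575 had a log2(fold change) of 6.19 in replicate 1 (95% counting interval 4.81 to 8.08) from 172 IP and 4 SMInput reads. In replicate 2 the overlapping peak, at positions 554 to 578, had a value of 5.46 (4.65 to 6.40) from at least 159 IP and at least 13 SMInput reads. Just upstream, the peak at positions 521 to 547 had a value of 6.17 in replicate 1 (5.11 to 7.50). Replicate 2 split these bases into a peak at 520 to 534 with 5.06 (4.31 to 5.90) and a peak at 535 to 545 with 5.04 (4.34 to 5.83). The peak at 552 to 575 in replicate 1 thus rests on few SMInput reads, while for the peak at 521 to 547, listed at 400, only a smallest possible number of 7 SMInput reads is known. The intervals of both overlap those of replicate 2.

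Replicate 2 had its highest value elsewhere, at positions 299 to 312, with a log2(fold change) of 5.68 (95% counting interval 4.75 to 6.77). The matching peak of replicate 1, at 298 to 313, had a value of 4.78 (3.98 to 5.72) from 211 IP and 13 SMInput reads. The lowest value of replicate 1 was close by, 3.49 (3.08 to 3.92) at positions 353 to 382, and replicate 2 had 4.11 (3.63 to 4.63) at 354 to 406. The lowest value of replicate 2 came farther downstream, 4.06 (3.59 to 4.54) at positions 457 to 466, where replicate 1 had 4.91 (4.22 to 5.68). Replicate 1 was thus already higher again at bases where replicate 2 was at its lowest, and these intervals overlap. The last dense stretch was flatter, from 4.18 to 4.86 over its 4 peaks in replicate 1 and from 4.31 to 5.06 over its 4 peaks in replicate 2.

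A few peaks belonged to replicate 1 alone. A peak at positions 764 to 794, at the 3′ edge of the internal gap, had a log2(fold change) of 3.92 (95% counting interval 3.29 to 4.61) from 205 IP and 23 SMInput reads. The 2 peaks of the 3′UTR were narrow, 6 and 8 bases wide, with values of 3.90 (3.15 to 4.75) and 4.63 (3.71 to 5.72) from 141 and 146 IP reads against 16 and 10 SMInput reads. Replicate 2 had no cluster at these 3 places. How many reads it had there is not known, since the tables list clusters only.

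For a comparison peak by peak, each replicate 1 peak that overlapped a peak of replicate 2 was paired with the one it shared the most bases with, which gave 32 pairs and left out further partners that shared fewer bases. The log2(fold change) was higher in replicate 2 in 20 pairs and lower in 12, with a median difference of 0.26 and a range from −1.11 to 1.04. Across these pairs, which share libraries and partly reads, Pearson's r was 0.516 and Spearman's rho 0.42, given as a description. The sign of the difference varied with position. From the start codon on, the 18 pairs up to position 419 were higher in replicate 2, and of the 14 pairs after it 12 were lower and 2 higher. Single differences were checked only by whether the counting intervals overlap, and an overlap does not show that a difference lies within counting error. Of the 32 pairs, 1, at positions 211 to 215 of replicate 1, had counting intervals that did not overlap, with 4.0 (3.53 to 4.51) in replicate 1 against 4.93 (4.52 to 5.35) in replicate 2. Counting every overlap of at least 1 base, 53 in all, replicate 2 was higher in 35 and lower in 18. Among these, 2 had intervals that did not overlap, the other at base 353, where 3.49 (3.08 to 3.92) in replicate 1 met 4.56 (4.08 to 5.07) in replicate 2. Upstream of position 419 replicate 2 was then lower in 1 overlap, at base 104, with 4.6 against 4.72. Because many intervals are the widest possible, the number that do not overlap may be larger.

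**Figure D3:**
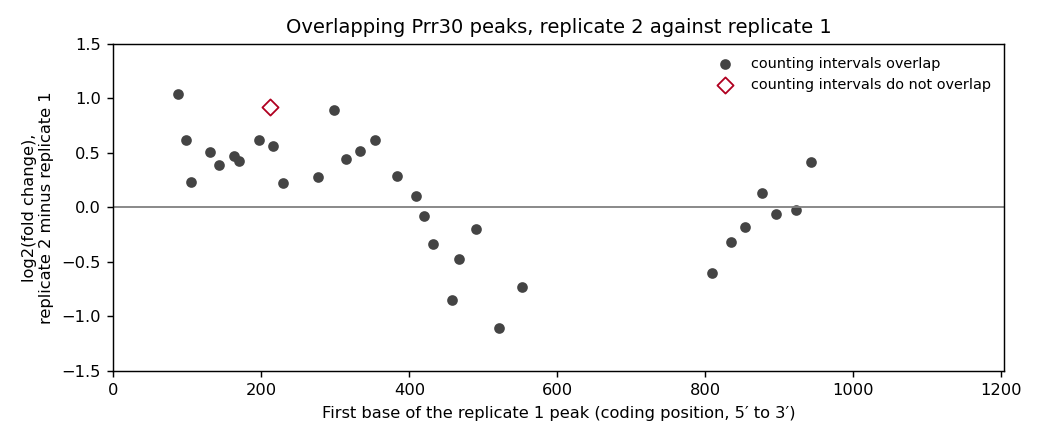
Difference in log2(fold change), replicate 2 minus replicate 1 (y axis), of the 32 pairs of Prr30 peaks, each replicate 1 peak with the replicate 2 peak that shares the most bases with it, against the first coding position of the replicate 1 peak (x axis), with dots where the counting intervals overlap and a diamond for the 1 of these pairs where they do not. The first 18 of these pairs lie above 0, and 12 of the 14 after them lie below it.

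The places where neighbouring peaks met were nearly the same in both replicates. Of 35 peak edges in replicate 2, 6 fell on the same base as an edge of replicate 1 and 28 (80%) fell within 2 bases of one. Over all peaks significant in both replicates, 21.4% of 9415 edges were within 2 bases. Among the other densely bound genes named here, this share was 60.3% for St6galnac2 (its longer record), 59% for Reep6 and 36.4% for Nsun4. Narrow peaks put edges close together, and the median peak widths of these genes were 16 and 21 bases for St6galnac2, 29 and 39 for Reep6 and 35 and 30 for Nsun4 in replicates 1 and 2.

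The bound stretches differed in base composition from the rest of the coding region. Under clusters of both replicates, 66.6% of the 623 bases were C or T, against 51.9% of the 522 bases under no cluster. The shares of G plus C were nearly equal, at 55.4% and 55.9%, because T rose from 19.7% to 27.9% and C from 32.2% to 38.7% while A and G were lower. The composition was not uniform among the stretches, with 73.9% and 67.7% C or T in the pieces of the first stretch, 63% in the third and 53.4% in the fourth. The second stretch, which carries the highest fold change of replicate 1, had 40.9%. Runs of 8 or more C or T numbered 15 in the coding region, the longest with 17 bases, and 14 of them lay wholly under clusters of both replicates. The single other run, at positions 57 to 64, lies under no cluster. Such a run was present in 6 of 12 windows of 100 bases along the Prr30 coding region and in 25.2% of 344965 windows over all coding sequences. Bases in proline codons, which begin with CC, made up 16.4% of the bound and 9.39% of the unbound bases.

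The same measure in other genes shows a similar direction. In 244 protein-coding genes with at least 100 coding bases under and 100 outside peaks of both replicates, the median share of C or T was 57.7% under peaks and 50.2% outside, and it was higher under peaks in 214 genes. Prr30 had 66.6% under and 52.4% outside, a difference of 14.2 percentage points that ranked 30 of 244. Nsun4 had 66.1% and 53.7%, Reep6 53.7% and 48.4%, and the longer record of St6galnac2 51.6% and 53%. The RNA of both IP and SMInput was fragmented with RNase A, an enzyme that cuts after C and U, and its part in this composition was not tested.

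**Figure D4:**
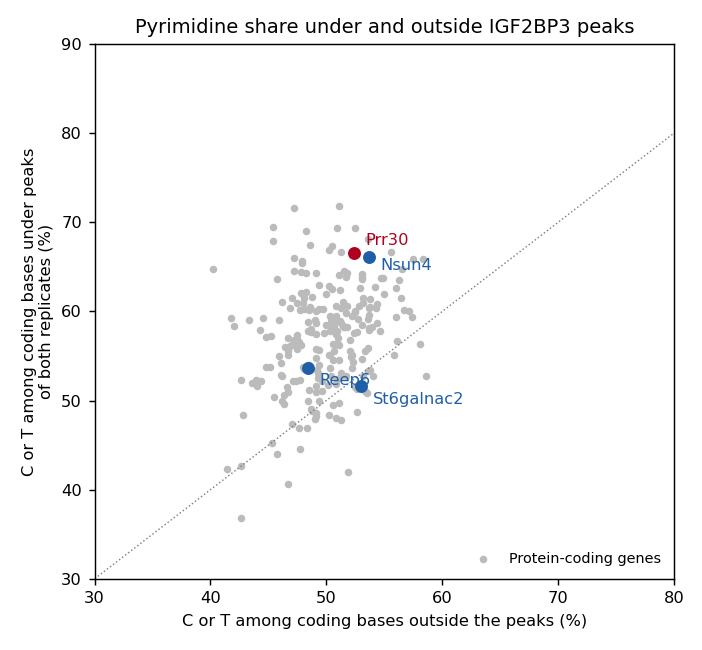
Share of C or T among coding bases under significant peaks of both replicates (y axis, %) against the share among the other coding bases of the same gene (x axis, %), 1 point for each of 244 genes, with the dotted line at equal shares. Prr30 lies above the line at 66.6% against 52.4%, next to Nsun4, while the longer record of St6galnac2 lies just below it.

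The m6A core sequence GGAC, read on the sense strand, occurred 7 times in the Prr30 coding region. Only 2 matches, at positions 225 and 450, lay under clusters of both replicates, and 5 lay under no cluster, 4 of them in the internal gap at positions 594, 612, 620 and 642. This came to 3.21 matches per 1000 bound bases and 9.58 per 1000 unbound bases, against 4.91 per 1000 bases over all coding sequences. Windows of 100 bases with a GGAC made up 5 of 12 in Prr30 and 37.5% of all coding windows. GAACA and AAACC each occurred 1 time, at positions 36 and 1078, under no cluster, and were present in 13.2% and 9.59% of all coding windows. CAT, a letter group often named for this protein family, occurred 12 times, 5 times under clusters of both replicates, 6 times under no cluster and 1 time under the peak of replicate 1 alone. This came to 9.98 per 1000 bases against 16 over all coding sequences, and to 7 of 12 windows against 77.2% of all coding windows. Other close variants of GGAC were not searched, so these matches do not cover all sequences that can carry m6A. A match shows only that these letters are present, and m6A itself was not measured in these libraries.

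The coding sequence has copies elsewhere in the genome. Aligned to GRCm38, it matched along its whole length at chr12:8479091-8480303, annotated as the transcribed processed pseudogene BC106175 (ENSMUSG00000112657.1), with 82.4% identity. It also matched along its whole length at chr2:78597646-78598922, annotated as the processed pseudogene Gm14464 (ENSMUSG00000082046.1), with 80.2% identity. The longest identical runs were 48 and 47 bases. Bound bases of Prr30 were identical to these copies at 83.6% and 84.8% of positions, and the other coding bases at 86.7% and 86.6%. These shares are of coding bases. The lower identities along the whole length are of 1242 and 1285 aligned positions, which include gaps. Neither table held a cluster at either copy. The other 2 alignments were 56 and 75 bases long, and neither had a cluster.

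Compared with the rest of the series, Prr30 stood near the top by number of peaks but not by number of sites. Counting for each gene the peaks that were significant and overlapped between replicates, the smaller of both replicates was 31 for Prr30 (32 in replicate 1), rank 5 of 2148 genes with any, tied with Reep6. When touching peaks were joined into sites, the smaller of both replicates was 4 for Prr30, at rank 646, which 337 genes shared. By the share of coding bases under peaks of both replicates it had rank 14 of 21951 protein-coding genes, of which 644 had any such bases, with a median of 5.23%, and 15 had more than 50%. Among 4623 genes with a coding region of 1000 to 1500 bases, 127 had any, with a median of 6.87%, and Prr30 at 51.8% had rank 3. St6galnac2 is annotated as 2 overlapping records, and both are counted in these ranks.

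Among the other densely bound genes named here, Reep6 and Nsun4 had nearly all of their peaks in annotated coding sequence, as Prr30 did. The share for St6galnac2 depended on the annotated record. Coding sequence is joined here over the basic transcripts of a gene, which gave 1797 bases for Reep6 and 3561 for Nsun4. A base that is coding in any transcript counts, even where another transcript leaves it untranslated. Shares for single transcripts were not computed. St6galnac2, a sialyltransferase gene, had, in its longer record (ENSMUSG00000057286.6), 63 and 56 significant peaks in replicates 1 and 2, of which 13 and 10 lay in its coding region, with 23.1% of coding bases under peaks of both and median log2(fold change) values of 3.04 and 3.37. The shorter record (ENSMUSG00000110170.1), which overlaps it, had 51 and 47 significant peaks, 37 and 36 of them in coding sequence, with 88.9% of coding bases under peaks of both and medians of 3.05 and 3.46. Nsun4, which encodes a mitochondrial RNA methyltransferase, had 43 and 42 significant peaks, 40 and 42 of them in coding sequence, with 32.5% of coding bases under peaks of both and medians of 4.14 and 4.77. Reep6, which encodes a membrane-shaping protein of the endoplasmic reticulum, had 35 and 35, with 34 in coding sequence in each replicate, 58.5% of coding bases under peaks of both and medians of 3.85 and 3.77. Prr30 at 4.48 and 4.56 had the highest median of the 4 genes in replicate 1, and Nsun4 had it in replicate 2.

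**Figure D5:**
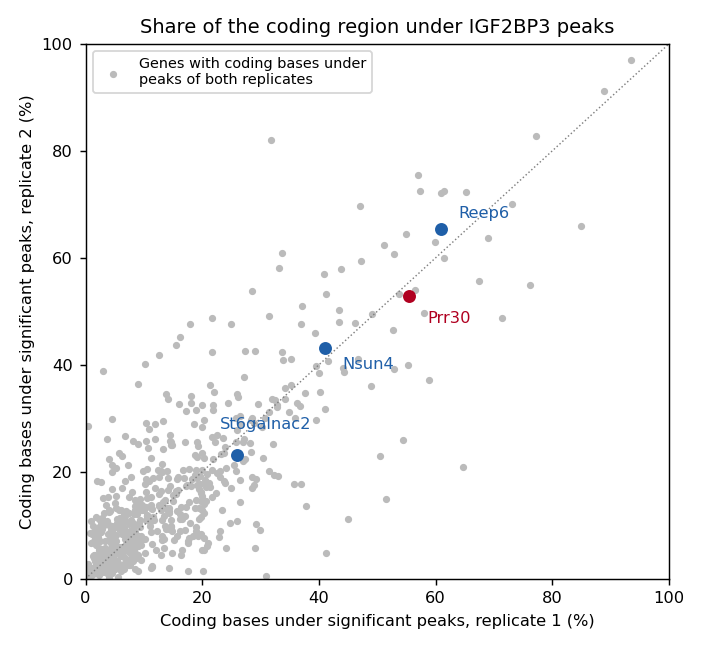
Share of coding bases under significant peaks in replicate 2 (y axis, %) against replicate 1 (x axis, %), 1 point for each of 644 protein-coding genes with bases under peaks of both replicates, with the dotted line at equal shares. Prr30 lies close to the line at 55.5% and 52.9%, between Nsun4 and Reep6, and St6galnac2 is marked at its longer record.

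By the share of coding bases under significant peaks and the share of significant peaks that lie in the coding region, each in both replicates, those nearest to Prr30 by Euclidean distance among 801 genes with at least 5 significant peaks in each replicate were Reep6, Paqr5, Aqp11, Tmem39b and Nsun4. Paqr5 had 9 and 11 significant peaks with 38.4% of coding bases under peaks of both, Aqp11 had 10 and 9 with 48.6%, and Tmem39b had 13 and 17 with 53.5%. Their coverage is near that of Prr30 because they were picked by it, and their median log2(fold change) values ran from 2.25 to 3.03.

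Genes that share the Prr name are grouped by name only and need not be related. Of 24 such protein-coding genes, 12 had a significant peak in either replicate (50%), 9 in both (37.5%), and 5 had coding bases under peaks of both (20.8%). Over all 21951 protein-coding genes these shares were 41%, 21.9% and 2.93%. Prr30 is itself in the list, and with 24 genes grouped by name nothing more is read from the shares. After Prr30 with 51.8%, these were Prr27 with 49.7%, Prr22 with 17.5%, Prr14 with 11.8% and Prr14l with 1.35%. Prr27 had 13 significant peaks in each replicate, in 9 joined sites in replicate 2. Prr19, with 5 peaks in each replicate, and Prr11 and Prr3, with 3 each, had none of their coding bases under peaks of both. Prr7 had 1 in each, outside these bases as well.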

How the data were processed

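eCLIP-seq of mouse testes was analysed in 2 replicates of 1 IP and 1 SMInput library each. Per the methods and labels, the authors trimmed adapters with cutadapt, removed ribosomal reads with Bowtie2, aligned the rest to mm10 with STAR, removed PCR duplicates with the help of unique molecular identifiers, and ran Clipper to call clusters in each replicate. The −log10 column, as deposited, holds the authors' P value for IP against SMInput in a cluster. The methods name Yates' chi-square and Fisher's exact tests for reads over gene regions and no test for clusters, and taking the same tests for clusters gave back the listed values. The deposited log2 values are the fold changes of library-scaled reads.

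Of 3 and 8 candidate pairs of library totals with the ratio that the fold changes require, the pair closest to the listed P values was taken, 5133438 IP and 8706391 SMInput reads in replicate 1, and 4637612 and 16696122 in replicate 2. Its median difference in −log10(P value) was 8.1e-08 over 28 clusters and 4.6e-08 over 4 clusters, against 2.6e-05 and 8.8e-05 for the next pair. All candidates of a replicate share 1 ratio. Peaks listed at 400 gave smallest possible read numbers only, 119 peaks in replicate 1 and 276 of 283 in replicate 2, where the other 7 gave none. On simulated data below 400, the numbers put in were found for 325 of 325 peaks at the totals of replicate 1 and for 267 of 267 at those of replicate 2. Intervals are exact binomial intervals of IP among all reads of a peak (scipy 1.17.1) at 95% and cover counting error only. At least 1 common base on the same strand counted as overlap. Regions came from GENCODE M21, with the coding region of a gene joined over its basic transcripts. Sequence was read from RefSeq GRCm38 with pysam 0.24.0 and aligned with blastn 2.17.0.

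Named genes were Prr30, St6galnac2, Nsun4 and Reep6, genes named Prr and a number, the 5 genes of nearest pattern, and the neighbours on the chromosome. Members and lists were chosen with earlier results of these data known, and the search for runs of C or T was added after the sequence was seen. Sample groups were not tested against each other. Alternatives covered thresholds, read minimums, assignment to genes, overlap and each replicate alone.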

Additional observations from a re-analysis of the deposited data

How the results depend on the processing

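The peak numbers of Prr30, 35 and 31, were the same with both thresholds at 3, with the fold change threshold lowered to 1, with at least 10 IP reads, with any overlap with the span and on either strand. The 31 peaks significant in both replicates became 28 when peaks had to share at least 50% of both, and ran from 31 to 35 with a replicate left out. The share of coding bases, 51.8%, ran from 52.9 to 55.5 with a replicate left out, since the bases no longer had to be covered in both. The rank of 5 by peaks significant in both replicates moved most. It was 2 with both thresholds at 3, 13 with the fold change threshold at 1, 4 by the nearest transcription start site and 6 to 12 with a replicate left out. It was 646, shared by 337 genes, when touching peaks were joined into sites and 14 by the share of coding bases. Both were chosen after seeing the data. The cause of the moves was not tested, apart from the joined sites, where adjoining peaks count as 1 by construction. The highest log2(fold change) of replicate 1 went from 6.19 to 6.17 with at least 5 SMInput reads. Each fold change already sets an IP against the SMInput of its own replicate. No paired test was run, since the gene was chosen on the same values. Depth limits the peak with 4 SMInput reads, and the intervals of peaks listed at 400 rest on smallest possible numbers.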
